A study of Mus musculus with 11 samples.

Results

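The 10 genes described here carry or mark the response of a tumour to low oxygen and its use of glucose. They are Hif1a, Vegfa, Adm, Car9, Slc2a1, Hk2, Pfkp, Pgk1, Ldha and Ndrg1, listed by name and looked up by Ensembl identifier in GENCODE M21. All 10 were among the 54232 genes of the deposited count table, and all 10 passed the expression filter that left 16536 genes for testing. Bulk RNA sequencing had been made of 11 orthotopic pancreatic tumours, 6 from KO hosts (A to F) and 5 from WT hosts (A to E), to ask what loss of protein kinase N2 (PKN2) from the host does to the tumour. Both groups were C57BL/6 females carrying the Rosa26 CreERT2+/WT transgene, both received tamoxifen, and KO hosts were PKN2 fl/fl where WT hosts were PKN2 +/+. Every pancreas had been injected with 1000 TB32048 cells, a single mouse carcinoma line with intact Pkn2, suspended in equal parts of DMEM and Matrigel. The Rosa26 promoter is active in most cell types, so that the deletion was not limited to fibroblasts. Hosts were adult mice of matched age, per the study's methods.

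When oxygen is low, the hydroxylases that mark HIF alpha subunits for destruction slow down, the subunits accumulate, and they bind DNA with ARNT at hypoxia response elements near their target genes. The targets shift cells from respiration to glycolysis, export acid and call in blood vessels. Pancreatic carcinomas are dense, poorly perfused tumours in which this response is well known, and since HIF activity is set mostly by protein stability, Hif1a RNA is not a reading of it.

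The promoters were searched for the core of the hypoxia response element, ACGTG or GCGTG on either strand, in the 250 bases before each RefSeq start (GRCm38.p6). RefSeq promoters were matched for 9 of the 10 genes, and each of the 9 held at least 1 match in at least 1 of its windows. Over the 11 windows of these genes, 10 held a match, against 38.6% of all 32851 promoters. GC content was unequal, with a median of 62.8% in the 11 windows and 52.4% over all promoters, and a CG-containing motif is met more often in GC-rich sequence. The E-box CACGTG, which contains the core on both strands, was held by 2 of the 11 windows, those of Hif1a and Ldha, and by 6.02% of all promoters. The 29 bases around 1 match per gene are shown, in the direction of the gene, to let the shared core be compared. Capitals mark the match, and CACGT and CACGC are the cores ACGTG and GCGTG on the opposite strand.
Hif1a, chr12:73907785-73907813, plus strand: tggctgagagcaACGTGggctggggtggg
Vegfa, chr17:46025365-46025393, minus strand: aagccctggagtGCGTGcccacgtcagag
Adm, chr7:110627591-110627619, plus strand: ggcaaatctgacCACGCccaccgtccgcc
Car9, chr4:43506996-43507024, plus strand: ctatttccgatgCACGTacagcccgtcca
Slc2a1, chr4:119108697-119108725, plus strand: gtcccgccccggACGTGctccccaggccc
Hk2, chr6:82774490-82774518, minus strand: aatgagcacatcCACGTcactgtccgggg
Pfkp, chr13:6648823-6648851, minus strand: ggccccgcccttGCGTGagtcccgcccat
Pgk1, chrX:106186938-106186966, plus strand: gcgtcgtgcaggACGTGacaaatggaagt
Ldha, chr7:46845744-46845772, plus strand: cggcccagcctaCACGTgggttcccgcac

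The match of Car9 ended 14 bases before the RefSeq start and lay in an annotated exon, as the exon-free part of that window held none. Those shown for Ldha and Hk2 ended 44 and 48 bases before the start. The match shown for Slc2a1 crossed the annotated start of that gene. Ldha held the most matches, 5 in the window of its first start, of which 4 were the strands of 2 E-boxes. The window of the first Vegfa start held no match. That of the second, most of it in an annotated exon, held 2, and its exon-free part held none. A match describes these letters only and is not a bound site.

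Total counts were between 16294128 and 31121422 per tumour. WT tumours A, B and C stood apart from the rest. They held 1.31%, 6.39% and 1.40% of their counts in ribosomal RNA genes, against 0.241% to 0.765% in the other 8 tumours, and their counts fell with gene length relative to the others. Fold changes are therefore given with and without these 3 tumours for the members, and for other named genes where the sign turned. Pkn2 itself was at 80.1 to 108.0 CPM (counts scaled to the TMM-adjusted library size) in KO tumours, with a median of 98.2, and at 69.2, 62.9, 84.4, 138.4 and 128.5 CPM in WT tumours A to E. The groups overlapped, and as the carcinoma cells kept Pkn2, its level is no check of the genotype. In bulk tumours, fewer cells of a type and less RNA per cell cannot be told apart.

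For none of the 10 genes was a difference between KO and WT tumours detected. No member passed an adjusted p of 0.05 (edgeR, quasi-likelihood test, adjusted over all tested genes), where 0.0181% of all tested genes did. None was under an unadjusted p of 0.05 either, where 24.0% of all tested genes were (8.57% higher and 15.5% lower in KO), and for none were the 2 groups free of overlap, where 3.6% of all tested genes were. The estimates were higher in KO for 4 members and lower for 6, with a median log2 fold change of -0.08 beside -0.03 over all tested genes, and 52.0% of all tested genes were lower. Car9 alone had an estimate of at least 1 in size, as had 9.66% of all tested genes. The intervals were wide, and the 95% interval of Car9 reached from -2.61 to 0.15, so that the design leaves sizeable differences of the more variable genes undetected.

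**Figure D1:**
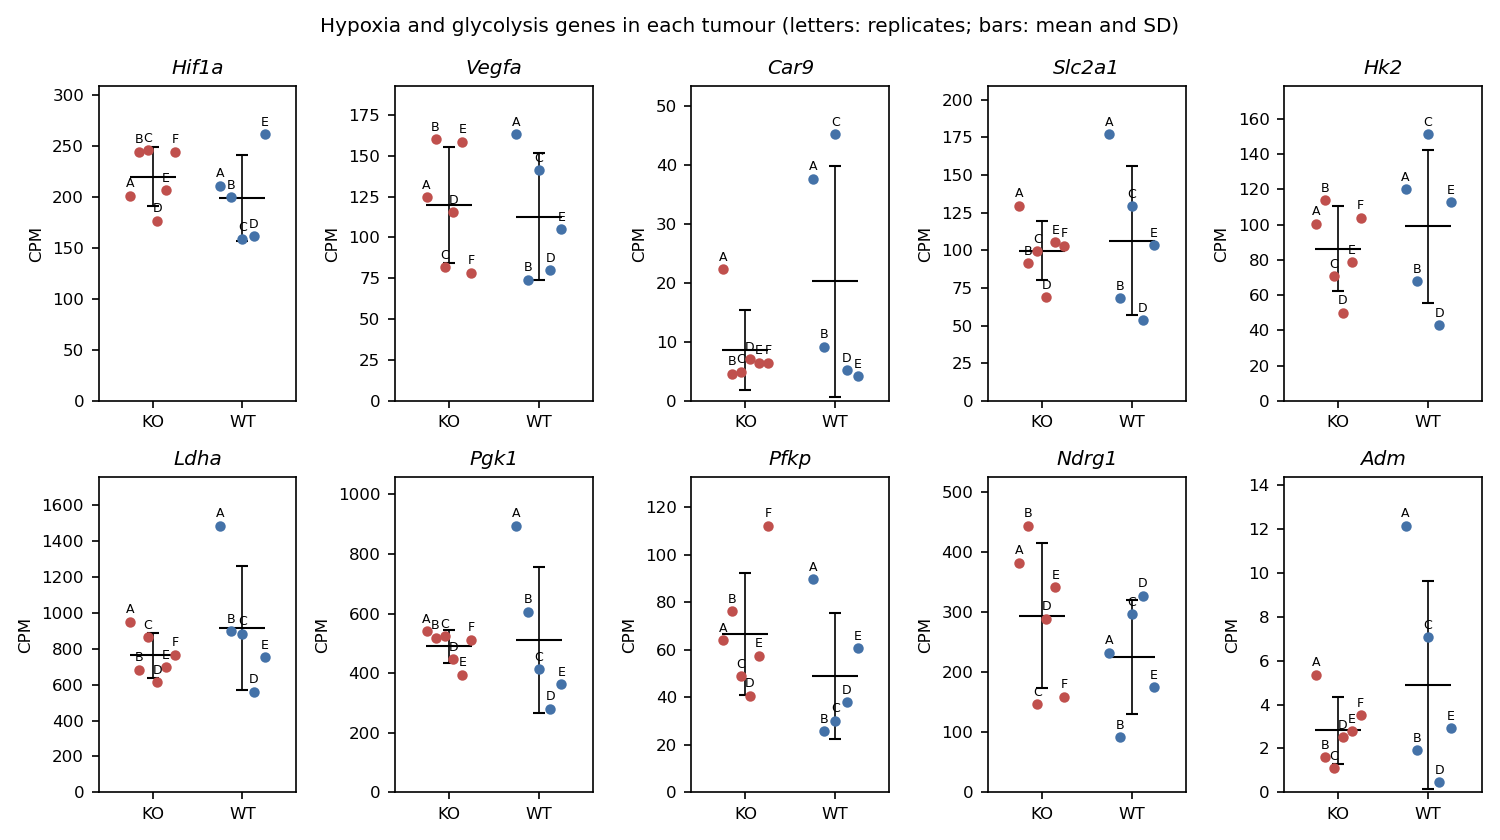
CPM of each member in every tumour, with KO tumours in red and WT tumours in blue, letters naming the replicates, and bars giving the mean and SD of 6 KO and 5 WT tumours. The groups overlap in all 10 panels, and WT tumours A and D often lie at opposite ends of the range.

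Hif1a (ENSMUSG00000021109, chromosome 12, 73901375 to 73947530, plus strand, GRCm38) encodes the oxygen-regulated subunit of HIF-1. It was at 176.7 CPM in the lowest KO tumour, 225.7 at the median and 245.9 in the highest, and at 211.1, 200.1, 158.9, 161.7 and 261.8 CPM in WT tumours A to E. The highest and the lowest tumour were both WT, so that the KO range lay wholly inside the WT range. The log2 fold change, KO over WT, was 0.15 (standard error, SE, 0.17, edgeR adjusted p = 0.612). Hif1a varied least of the 10 across the 11 tumours, by 1.65-fold from lowest to highest, and only 16.0% of tested genes had a smaller SD of log2(CPM + 1). Exons of the antisense gene Gm15283 and of Gm49321 on the same strand overlap those of Hif1a by 330 and 148 bases.

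Of the secreted factors, Vegfa (ENSMUSG00000023951, chromosome 17, 46016993 to 46032369, minus strand) encodes the main growth factor for blood vessel endothelium. It was at 78.5, 120.0 and 160.0 CPM in the lowest, median and highest KO tumour, and at 163.3, 74.1, 141.2, 79.9 and 105.2 CPM in WT tumours A to E. Both groups spread over nearly the same range, and the highest and lowest values were again WT. KO over WT, the log2 fold change was 0.09 (SE 0.26, edgeR adjusted p = 0.860). It changed sign when any of KO B, KO E, WT B or WT D was left out, at values down to -0.03.

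Adm (ENSMUSG00000030790, chromosome 7, 110627661 to 110629820, plus strand) encodes adrenomedullin, a vasodilator peptide that also acts on endothelium. It was the scarcest member and the one with the widest range. KO tumours had 1.11 CPM at the lowest, 2.66 at the median and 5.36 at the highest, and WT tumours A to E had 12.2, 1.92, 7.08, 0.470 and 2.93 CPM. WT A and WT C were above every KO tumour, and WT D was below all, so that the WT values enclosed the KO values. From 12 counts in WT D to 280 in WT A, the span was 25.9-fold in CPM, and 94.7% of tested genes had a smaller SD. The log2 fold change was -0.80 (SE 0.64, edgeR adjusted p = 0.453), and was -0.14 without WT A.

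Car9 (ENSMUSG00000028463, chromosome 4, 43506966 to 43513729, plus strand) encodes carbonic anhydrase 9, a surface enzyme that helps cells export acid and is a common tissue marker of hypoxia. Its levels fell into a low and a high range in both groups. KO B to F lay between 4.64 and 7.03 CPM and KO A was at 22.3 CPM. In WT tumours A to E it was at 37.7, 9.18, 45.3, 5.21 and 4.23 CPM. The high tumours were thus KO A, WT A and WT C, while WT D and WT E lay with the KO tumours, and WT E was the lowest of all. Its log2 fold change, -1.23 with an SE of 0.64, was the largest in size of the 10 and did not pass the test (edgeR unadjusted p = 0.0765, adjusted p = 0.255). It was -0.70 without WT C, -0.88 without WT A and -1.78 without KO A, and 0.89 without WT A, B and C together. Over the tumours Car9 spanned 10.7-fold, and 98.0% of tested genes varied less. Gm12454 overlaps it by 214 bases on the other strand, and whether the counting used strand is not given in the sources used here. Antisense exons also overlap those of Pfkp (Pitrm1, 748 bases), Ndrg1 (Gm2895 and Gm17035, 556 bases) and Slc2a1 (Gm12868, 105 bases).

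Slc2a1 (ENSMUSG00000028645, chromosome 4, 119108711 to 119137983, plus strand) encodes GLUT1, the transporter that brings glucose into most cells. KO tumours had 68.9, 101.4 and 129.7 CPM at the lowest, median and highest, and WT tumours A to E had 177.2, 68.1, 129.5, 53.8 and 103.6 CPM. WT A was the highest and WT D the lowest, with all KO tumours between them. Its log2 fold change was -0.09 (SE 0.28, edgeR adjusted p = 0.859), and turned to 0.17 without WT A.

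Hk2 (ENSMUSG00000000628, chromosome 6, 82725025 to 82774454, minus strand) encodes hexokinase 2, which traps glucose in the cell as glucose 6-phosphate. Its lowest, median and highest KO values were 50, 89.6 and 113.7 CPM, and WT tumours A to E had 120.1, 68.0, 151.3, 42.9 and 112.6 CPM. WT A and WT C lay above every KO tumour and WT D lay below them all. The log2 fold change came to -0.20 (SE 0.30, edgeR adjusted p = 0.712), and was 0.01 without WT C.

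Pfkp (ENSMUSG00000021196, chromosome 13, 6579768 to 6648777, minus strand) encodes the platelet form of phosphofructokinase, the committed step of glycolysis. It was at 40.7, 60.7 and 112.2 CPM in the lowest, median and highest KO tumour, and at 89.5, 25.7, 30.2, 38.1 and 60.6 CPM in WT tumours A to E. WT B, C and D were below every KO tumour, and WT A was above all KO tumours but F. At 0.45 (SE 0.34), its log2 fold change was the highest of the 10 (edgeR adjusted p = 0.431). It was 0.78 without WT A and 0.23 without KO F. With the ribosomal RNA share as covariate it was 0.049, and with a gene length offset 0.017. Its level went against the ribosomal RNA share, with r of -0.65 over the 11 tumours (permutation p = 0.0266, adjusted p = 0.495 over 40 relations), rho of -0.60 (permutation p = 0.0563, adjusted p = 0.450) and r of -0.21 without WT B and WT C.

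Pgk1 (ENSMUSG00000062070, chromosome X, 106187100 to 106203699, plus strand) encodes phosphoglycerate kinase, which makes the first ATP of the pathway. KO tumours kept to a narrow range, 395.1, 515.8 and 540.9 CPM at the lowest, median and highest. WT tumours A to E had 895.2, 606.0, 414.5, 281.0 and 363.7 CPM. The SD of log2(CPM + 1) was 0.18 in KO and 0.65 in WT tumours, with WT A and B above and WT D and E below every KO tumour. The fitted log2 fold change was -0.06 (SE 0.26, edgeR adjusted p = 0.904). It was 0.24 without WT A, and without WT A, B and C together it was 0.61 (edgeR unadjusted p = 0.00524, adjusted p = 0.146).

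Ldha (ENSMUSG00000063229, chromosome 7, 46841475 to 46855627, plus strand) encodes the lactate dehydrogenase subunit that turns pyruvate to lactate at the end of glycolysis. It was at 614.6, 731.8 and 950.0 CPM in the lowest, median and highest KO tumour, and at 1485, 898.2, 882.7, 560.8 and 753.3 CPM in WT tumours A to E. WT A stood above all other tumours, WT B and C lay within the upper KO values, and WT D was the lowest. Its log2 fold change came to -0.27 (SE 0.24, edgeR adjusted p = 0.507), and was -0.02 without WT A. Processed copies of Pgk1 and Ldha exist in the mouse genome, and reads that fitted a copy equally well were not counted, so that both levels may be understated.

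Ndrg1 (ENSMUSG00000005125, chromosome 15, 66929318 to 66969640, minus strand) encodes a stress-responsive protein of differentiated epithelium that is induced in hypoxia. It was at 146.9, 315.3 and 443.5 CPM in the lowest, median and highest KO tumour, and at 232.1, 91.8, 296.3, 327.0 and 175.2 CPM in WT tumours A to E. KO A, B and E were above every WT tumour, KO C and F were below all WT tumours but B, and the groups overlapped widely. KO over WT, the log2 fold change came to 0.39 (SE 0.36, edgeR adjusted p = 0.517).

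Compared per kilobase of merged exon length, the levels fell in the order Ldha, Pgk1, Ndrg1, Hif1a, Slc2a1, Vegfa, Hk2, Car9, Pfkp and Adm. In KO tumours Ldha was at 230 ± 37.7 and Pgk1 at 218 ± 25.2 CPM per kilobase (SD, n = 6), which do not differ beyond their spread. The next step down was wide, to 44.5 ± 18.2 for Ndrg1, followed by 37.3 ± 4.95 for Hif1a, 28.5 ± 5.64 for Slc2a1 and 28.0 ± 8.29 for Vegfa, whose spreads meet from 1 neighbour to the next. Hk2 lay at 14.5 ± 4.02, above Car9 at 3.75 ± 2.93, Pfkp at 4.97 ± 1.90 and Adm at 1.74 ± 0.931. The spread of Car9 met those of Pfkp and of Adm, which did not meet each other. In WT tumours (n = 5) the spread was wider, with Ldha at 277 ± 104, Pgk1 at 228 ± 109 and Adm at 3.03 ± 2.92 CPM per kilobase. The exon length of Pfkp, 13401 bases, counts every annotated exon and lowers its level on this scale. The order over all tumours was the same with the deposited normalised values.

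The extremes were mostly WT tumours, which held the highest level of 8 members and the lowest level of all 10. WT A had the highest level of 5 members, Vegfa, Adm, Slc2a1, Pgk1 and Ldha, and lay above the median of all tumours for 9 of 10. WT D had the lowest level of 5, Adm, Slc2a1, Hk2, Pgk1 and Ldha, and was among the lowest 3 tumours for 8. WT C was highest for Car9 and Hk2 and lowest for Hif1a, and WT B was lowest for Vegfa, Pfkp and Ndrg1. Of the KO tumours, KO A was most often high, above the median for 8. These counts are a description with no test.

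Members rose and fell together across tumours to different degrees. Of the 45 pairs, 38 had a Pearson r above 0, with a median of 0.39 and a range from -0.46 to 0.86. An adjusted permutation p under 0.05, over the 45 pairs, was reached by 6 pairs for Pearson r and by 1 for Spearman rho. Slc2a1 with Adm was the pair that passed both, with r of 0.86 (permutation test, adjusted p = 0.0232) and rho of 0.87 (permutation test, adjusted p = 0.0423). Without WT A and WT D, the tumours farthest from the median of Slc2a1, r was 0.65 (exact permutation p = 0.0586), so that the relation rests partly on them.

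Slc2a1 also went with Hk2, at r of 0.83 (permutation test, adjusted p = 0.0254) and rho of 0.73 (permutation test, adjusted p = 0.173), and of the 6 relations it had the highest r without WT A and WT D, at r of 0.76 (exact permutation p = 0.0187). Car9 with Adm had r of 0.84 (permutation test, adjusted p = 0.0232) and rho of 0.65 (permutation test, adjusted p = 0.173), and r of 0.62 without WT A and WT C (exact permutation p = 0.0848). Ldha with Pgk1 had r of 0.84 (permutation test, adjusted p = 0.0285) and rho of 0.75 (permutation test, adjusted p = 0.173), but r of 0.43 without WT A and WT D (exact permutation p = 0.246). The r of Ldha with Slc2a1, 0.79, and with Adm, 0.78, dropped to 0.45 and 0.33 in the same way (rho of 0.65 for both, permutation test, adjusted p = 0.173). Over the 11 tumours these 3 relations of Ldha thus lean on WT A and WT D. In the KO tumours alone, r of Ldha was 0.84 with Slc2a1 and 0.64 with Pgk1, but 0.30 with Adm. No pair with Hif1a passed. Its highest r was with Pfkp, 0.64 (permutation test, adjusted p = 0.142), and its lowest was with Car9, -0.46 (permutation test, adjusted p = 0.331), where rho was -0.67 (permutation test, adjusted p = 0.173).

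**Figure D2:**
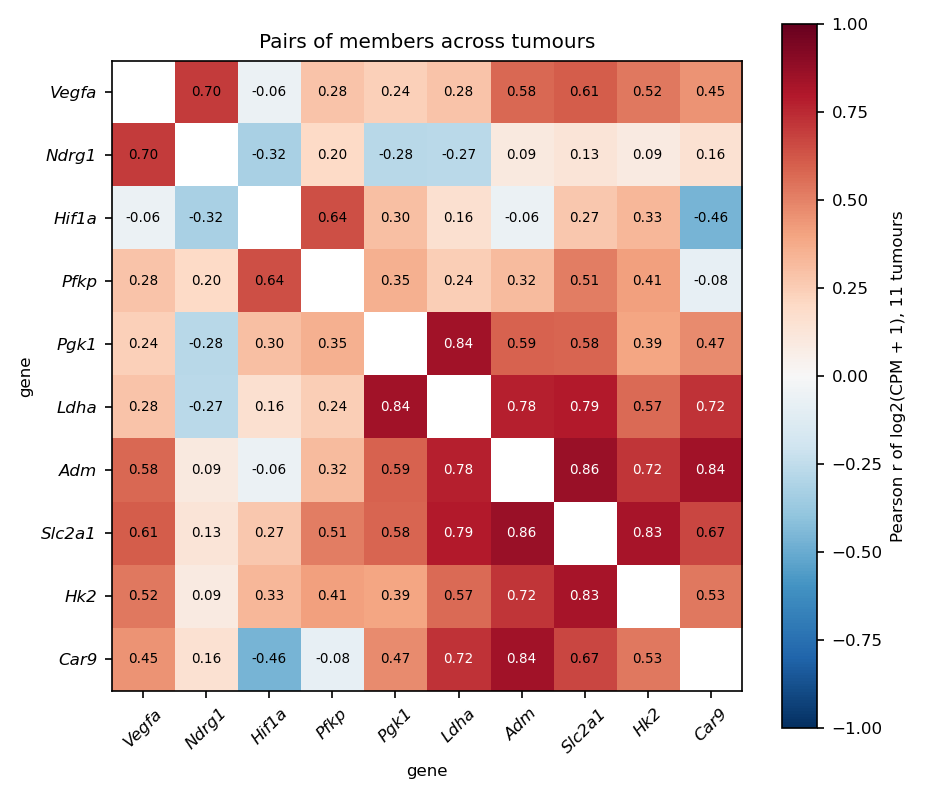
Pearson r of log2(CPM + 1) over the 11 tumours for each pair of members, written in the cells and coloured from blue (-1) to red (1). Adm, Slc2a1, Hk2, Ldha, Pgk1 and Car9 form the red block. With these genes, Ndrg1 ran from -0.28 (Pgk1) to 0.16 (Car9), and Hif1a from -0.46 (Car9) to 0.33 (Hk2).

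With group means removed, 40 of the 45 r values were above 0 and their median was 0.44. This pools both groups, and the wider WT spread weighs more in it. In the KO tumours alone, r was 0.85 for Car9 with Adm and 0.84 for Slc2a1 with Ldha. It was 0.68 for Slc2a1 with Hk2, 0.64 for Ldha with Pgk1, 0.48 for Slc2a1 with Adm and 0.30 for Ldha with Adm. Vegfa and Ndrg1 had r of 0.70 (permutation test, adjusted p = 0.0937) and rho of 0.65 (permutation test, adjusted p = 0.173). Of 40 relations between the members and 4 measures of each tumour, namely the ribosomal RNA share and the summed carcinoma epithelial, fibroblast and endothelial markers, none passed after adjustment. The largest with a marker list was Car9 with carcinoma epithelium, at r of 0.64 (permutation p = 0.0396, adjusted p = 0.495) and rho of 0.36 (permutation p = 0.273, adjusted p = 0.748).

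As a description over the 11 tumours, the gene of at least 10 CPM whose pattern was most like each member was Ero1l for Adm (r of 0.92), Cdipt for Car9 (0.97), Nudc for Ldha (0.96), B3gnt3 for Ndrg1 (0.96), Prkch for Pfkp (0.94), Nars for Slc2a1 (0.94), Stk11 for Pgk1 (0.93), Cd80 for Hif1a (0.91), Ppp1r37 for Hk2 (0.87) and Mal for Vegfa (0.85). Each was the best of 10550 candidates (10551 for Adm, which is itself under that level) in the same libraries.

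The other genes of the pathways are given from 9 lists, which hold 84 genes beside the members, 83 of them tested. None passed an adjusted p of 0.05 (edgeR), and 18 were under an unadjusted p of 0.05, 8 higher and 10 lower in KO, or 21.7%, close to the 24.0% of all tested genes. CPM did not overlap between groups for 4 of the 83, or 4.82%, beside 3.6% of all tested genes.

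Among 11 HIF subunits and regulators, 1 was under an unadjusted p of 0.05, and the median log2 fold change was 0.04. It was Egln1, the prolyl hydroxylase that senses oxygen, at 93.7 ± 5.52 CPM in KO against 137.5 ± 60.4 CPM in WT tumours (SD), with a log2 fold change of -0.55 (edgeR adjusted p = 0.200) and 0.24 without WT A, B and C. Egln3, a hydroxylase that HIF itself induces, was at 112.0 CPM in WT A and 57.1 CPM in WT C and at 16.0 to 33.0 CPM in the other 9 tumours, with a log2 fold change of -0.72 (edgeR adjusted p = 0.357) and 0.68 without WT A, B and C. Epas1, which encodes HIF-2 alpha, and Arnt2, a partner subunit, had log2 fold changes of 0.34 and 0.67 (edgeR adjusted p = 0.442 and 0.452).

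Of 18 glycolytic enzymes, 13 had lower estimates in KO tumours, as had 52.0% of all tested genes. Their median log2 fold change was -0.16, and 3 were under an unadjusted p of 0.05. Hk1, the hexokinase of most tissues, was at 155.5 to 238.3 CPM in KO against 72.4 to 146.4 CPM in WT tumours, without overlap, and its log2 fold change was 0.66 (edgeR adjusted p = 0.0991). Hk3, a hexokinase of myeloid cells, had a log2 fold change of 1.25 (edgeR adjusted p = 0.128). Triosephosphate isomerase, Tpi1, had one of -0.84 (edgeR adjusted p = 0.112), with 1298 and 1481 CPM in WT A and B and 404.5 to 690.9 CPM in the other 9 tumours. Pyruvate kinase, Pkm, had the highest counted level of the 18 enzymes, in CPM and per kilobase. It was at 1474 ± 150 CPM in KO against 1687 ± 387 CPM in WT tumours (SD, edgeR adjusted p = 0.548). Eno2 had a log2 fold change of -0.52 (edgeR adjusted p = 0.362). Of the hexokinases, Hk1 and Hk3 had estimates above 0 and Hk2 one below 0, and without WT A, B and C all 3 were above 0, Hk2 at 0.16.

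Among 7 glucose and lactate transporters, Slc2a3, which encodes the high-affinity transporter GLUT3, had a log2 fold change of 1.00 (edgeR adjusted p = 0.104). Its KO values were 9.63 to 21.8 CPM, and WT values were 3.42 to 8.42 CPM except for 12.7 CPM in WT E. Basigin, Bsg, the chaperone of lactate transporters, had a log2 fold change of -0.57 (edgeR adjusted p = 0.164), and 0.06 without WT A, B and C. The lactate transporters Slc16a7 and Slc16a1 had log2 fold changes of 0.45 and -0.13 (edgeR adjusted p = 0.454 and 0.769). Of 10 genes for pyruvate entry to mitochondria, 1 was under an unadjusted p of 0.05, Pdhb at -0.36 (edgeR adjusted p = 0.198), while Pdha1 was at 0.28, Pdk4 at 0.48 and Mpc2 at -0.62 on the log2 scale (edgeR adjusted p = 0.227, 0.426 and 0.255).

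Of 20 other HIF target genes, 8 had higher and 12 lower estimates, where 52.0% of all tested genes were lower. Their median log2 fold change was -0.15, and 5 were under an unadjusted p of 0.05. Car12, which encodes a second surface carbonic anhydrase, had the smallest p of all the pathway genes. KO tumours had 4.63, 5.64 and 8.86 CPM at the lowest, median and highest, and WT tumours A to E had 1.26, 0.417, 2.75, 1.41 and 1.71 CPM. Every KO tumour lay above every WT tumour, the log2 fold change was 2.04 (SE 0.39, edgeR adjusted p = 0.0663), and over the alternatives it ran from 1.82 to 2.35 and passed in 5 of them. Car9, the other surface carbonic anhydrase induced by HIF, had an estimate of the opposite sign over the 11 tumours and of the same sign, at 0.89, without WT A, B and C.

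Pfkfb3, which makes the allosteric activator of phosphofructokinase, was at 39.7 to 84.7 CPM in KO against 15.3 to 38.8 CPM in WT tumours, also without overlap, with a log2 fold change of 0.93 (edgeR adjusted p = 0.0936). In the other direction, Higd1a, a mitochondrial protein induced by hypoxia, had a log2 fold change of -1.23 (edgeR adjusted p = 0.0976), with 123.6, 134.3 and 83.2 CPM in WT A, B and C and 25.1 to 44.3 CPM in the other 8 tumours. Without those 3 tumours its log2 fold change was 0.04. Ankrd37 moved alike, from -1.06 (edgeR adjusted p = 0.189) to 0.74 without them, and the collagen crosslinker Lox was at 0.40 (edgeR adjusted p = 0.448).

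Of a 15-gene tumour hypoxia signature, which holds 5 of the members, 12 genes had lower and 3 higher estimates in KO, where 52.0% of all tested genes were lower. The median log2 fold change was -0.27, and 3 were under an unadjusted p of 0.05. Without WT A, B and C, the log2 fold changes of its members Adm, Slc2a1, Ldha, Vegfa and Ndrg1 were 0.73, 0.35, 0.22, 0.38 and 0.23. Mrps17, a mitochondrial ribosomal protein, was at -0.71 (edgeR adjusted p = 0.111) and the collagen prolyl hydroxylase P4ha1 at 0.10 (edgeR adjusted p = 0.784). Among 14 VEGF and adrenomedullin ligands and receptors, 4 were under an unadjusted p of 0.05 and the median was 0.19. Calcrl, the receptor through which adrenomedullin acts, was at 13.9 to 18.7 CPM in KO against 8.84 to 12.7 CPM in WT tumours without overlap, with a log2 fold change of 0.60 (edgeR adjusted p = 0.0942), while its partner Ramp2 was at -0.64 (edgeR adjusted p = 0.205). The coreceptor Nrp2 was at 0.71 and the ligand Vegfb at -0.69 (edgeR adjusted p = 0.138 and 0.131).

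Of 9 carbonic anhydrases and pH regulators, 8 were tested and Car12 alone was under an unadjusted p of 0.05. Car2 and Car4 were at -0.89 and -1.10 on the log2 scale, and the bicarbonate transporter Slc4a4 at 0.41 (edgeR adjusted p = 0.255, 0.267 and 0.423). The 4 NDRG genes had estimates from 0.03 to 0.45, with Ndrg4 the highest and Ndrg3 at 0.12 (edgeR adjusted p = 0.299 and 0.753).

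**Figure D3:**
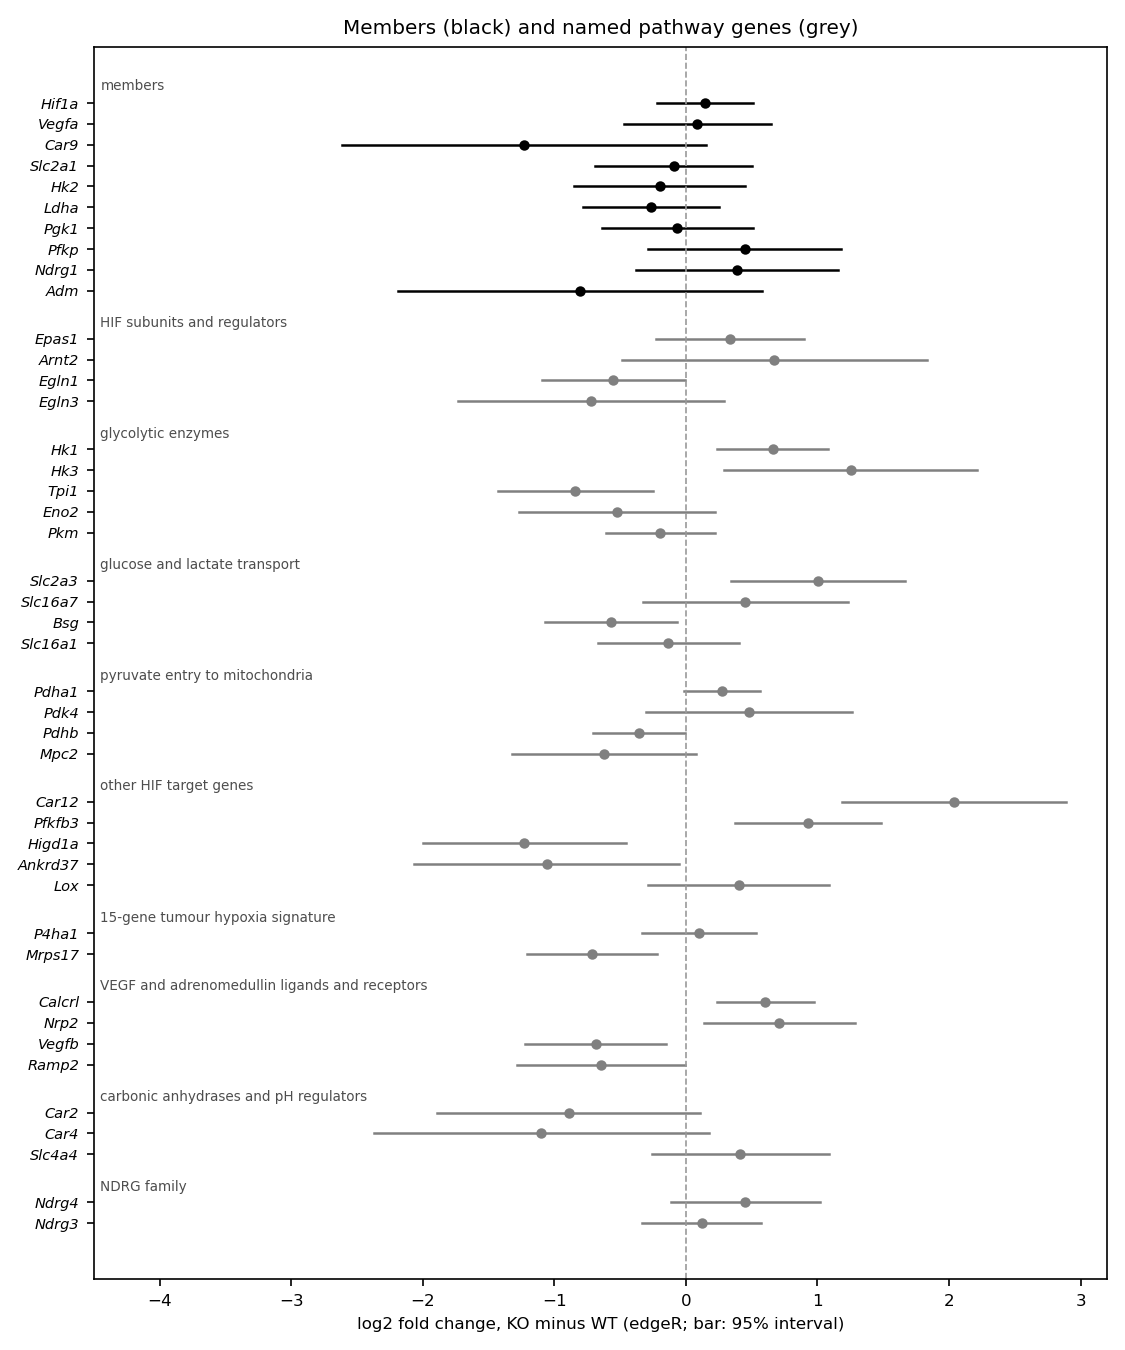
Log2 fold change, KO over WT, of the 10 members (black) and of the named genes of each list (grey), with bars for the edgeR 95% interval. Every member's bar crosses 0, and Car12 lies farthest from 0, at 2.04.

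Summed markers of cell types overlapped between the groups for every list but that of B cells. No tested marker passed an adjusted p of 0.05 (edgeR), and no fibroblast or T cell marker was under an unadjusted p of 0.05. Of all tested genes, 24.0% were under that unadjusted p. All 9 carcinoma epithelial markers were detected in every tumour and all 9 had lower estimates in KO, 3 of them under an unadjusted p of 0.05, and their summed level was 2758 to 5659 CPM in KO against 3182 to 9521 CPM in WT tumours. All 7 neutrophil markers had higher estimates, 5 of them under an unadjusted p of 0.05, with sums of 273 to 2257 CPM in KO against 158.5 to 1009 CPM in WT tumours. All 8 macrophage markers also had higher estimates, 3 of them under that p, with sums of 2043 to 3790 and 1507 to 2757 CPM. Endothelial sums were 200.5 to 297 CPM in KO against 136.7 to 293 CPM in WT tumours, and fibroblast sums 4382 to 9424 and 2414 to 9362 CPM. B cell sums were 33.6 to 101.5 CPM in KO against 6.26 to 30.3 CPM in WT tumours. T cell sums were 64.6 to 376.7 and 171.7 to 437.5 CPM, erythroid sums 56.3 to 133 and 9.24 to 100 CPM, and proliferation sums 520.7 to 835.8 and 632 to 844 CPM. Acinar sums were 7.14 to 518.9 and 12.7 to 1225 CPM, and islet sums 0 to 73.5 and 0.0834 to 309.5 CPM, with all 5 islet markers at 0 in some tumour. The part of these cells in any difference named here was not tested.

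The direction of 6 members depended on WT A, B and C. With those 3 tumours left out, leaving 2 WT tumours, the log2 fold changes of Car9, Adm, Slc2a1, Hk2, Ldha and Pgk1 were 0.89, 0.73, 0.35, 0.16, 0.22 and 0.61, all opposite in sign to those over 11 tumours. Those of Hif1a, Vegfa, Pfkp and Ndrg1 kept their sign, at 0.06, 0.38, 0.44 and 0.23. The median of the 10 members became 0.36. None of the 10 passed an adjusted p of 0.05 in that fit or in any other alternative, and Pgk1 was the single member under an unadjusted p of 0.05 in it.

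**Figure D4:**
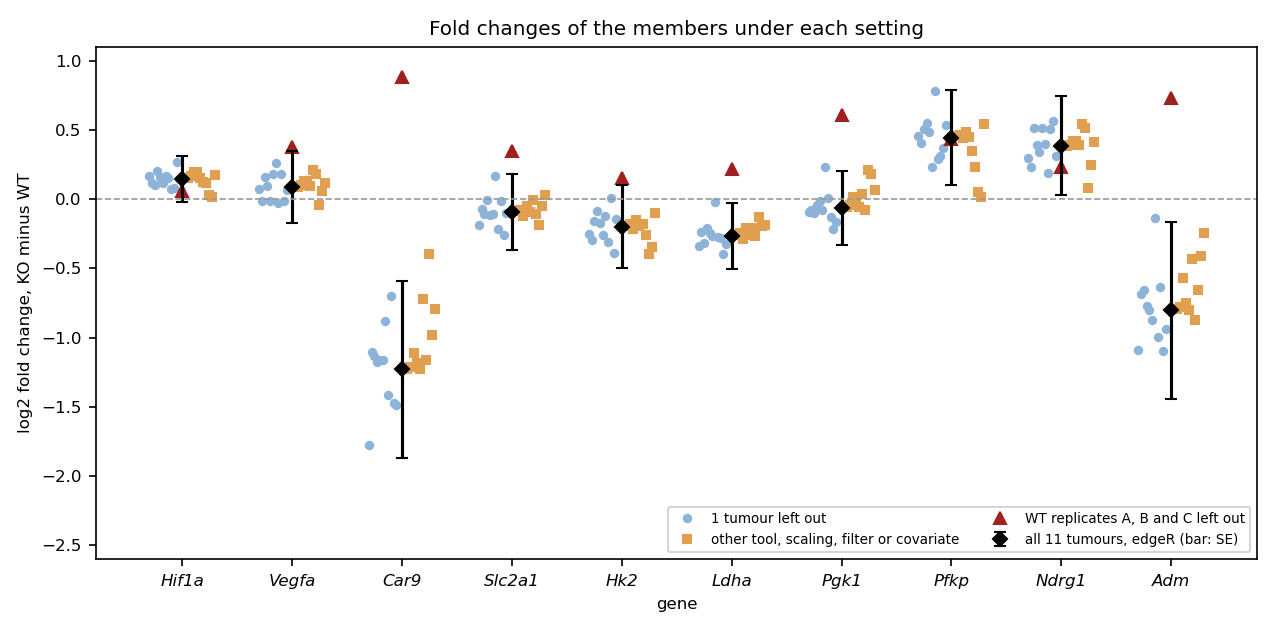
Log2 fold change of each member over all 11 tumours (black, bar for the standard error), with 1 tumour left out (blue), under another tool, scaling, filter or covariate (orange), and with WT A, B and C left out (red triangles). The red triangles of Car9, Slc2a1, Hk2, Ldha, Pgk1 and Adm lie above 0 while the black points lie below it.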

How the data were processed

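RNA from 11 tumours was sequenced from strand-specific NEB Next Ultra II libraries. Per the submitters' processing notes and the study's methods, reads were demultiplexed with bcl2fastq 2.19, trimmed with Trimmomatic, aligned to GRCm38 with HISAT2 2.1.0 and, if unique and of mapping quality above 10, counted over exons with HTSeq 0.11.2. The authors deposited raw counts per gene, used for all tests, and a normalised signal, which is each deposited count divided by 1 DESeq2 size factor per tumour. Same-lettered tumours were not treated as pairs.

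Groups and letters came from the sample titles. edgeR 4.0.16 (R 4.3.3) was run with TMM factors, filterByExpr, no covariate and Benjamini-Hochberg adjustment over 16536 genes, at a threshold of 0.05. The standard error was taken from the F statistic as the fold change over its square root. The study describes the hosts as littermates, but nothing says which tumours shared a litter or a batch. The p-values therefore measure the spread between these tumours. Alternatives used DESeq2 1.42.0, limma 3.58.1, other filters, covariates and sets of tumours. The fit was tested on simulated data. Levels and correlations used log2(CPM + 1), with 100000 permutations, or an exact permutation test with 9 tumours.

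The members and lists were chosen with earlier results of these data known. Genes named beside the members were at most 2 of each list in each direction with the smallest p, the most abundant of each list, Pkn2, and the most correlated gene for each member; 1 gene that the rule names is not reported here. Identifiers were matched to GENCODE M21 for 54165 of 54232 genes, and coordinates are 1-based on GRCm38. A depth of 3 counts is 0.0887 to 0.250 CPM. Every 2 libraries of the same group differed by more than sampling noise. Promoter sequences are from RefSeq.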

Additional observations from a re-analysis of the deposited data

Results flagged for a closer look

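Car9 in KO A was at 22.3 CPM, far from the other 5 KO tumours, which lay between 4.64 and 7.03 CPM. The gap to the nearest of them was 0.864 of the whole range of the group. Among the 20 groups examined, 10 genes in KO and in WT tumours, this was the 1 value set apart in this way, and chance gives about 1 in 20. In KO A the other members were not set apart.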

How the results depend on the processing

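No member passed an adjusted p of 0.05 under any alternative. Under an unadjusted p of 0.05 there was 1 member with DESeq2, without KO A, WT D or WT E (Car9 each time), without WT A (Pfkp) and without WT A, B and C (Pgk1). The median of the members was 0.36 without WT A, B and C, and -0.24 to 0.17 with 1 tumour left out.

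Over all genes, edgeR called 3 higher and 0 lower in KO, with 3972 under an unadjusted p of 0.05. DESeq2 called 595 and 900, edgeR with no expression filter 39 and 6, a gene length offset 69 and 28, and limma on the deposited normalised values 40 and 6. limma voom with quality weights, a minimum of 10 counts in every tumour and the ribosomal RNA share as covariate called 0 and 0, with 3024, 3514 and 1470 under an unadjusted p of 0.05. Without WT A, B and C, 4 were higher and 3 lower. With 1 tumour left out the counts ran from 0 to 608 higher and 0 to 1248 lower, the highest without WT E (without WT D, 203 and 651). The replicate block called 7 higher and 1 lower, against 30 and 2 in the same 10 tumours with no block, a comparison chosen after seeing the data. The letters share only a name: deviations of same-lettered tumours from their group means correlated at -0.129 to 0.109, and 1 of 5 letters correlated best with its own.

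In the lists, 0 genes passed with edgeR. DESeq2 called 3 glycolytic enzymes, 1 transporter, 3 other HIF targets, and 1 gene each of the hypoxia signature, the VEGF and adrenomedullin list and the pH regulators. The gene length offset and the deposited values each called 1 gene, Car12, in 2 lists. With 1 tumour left out, calls ran from 0 to 1 for glycolytic enzymes and transporters, 0 to 2 for the signature and pH regulators, 0 to 3 for VEGF and adrenomedullin genes and 0 to 4 for other HIF targets. Of the genes named, Car12, Pfkfb3, Higd1a, Hk1, Slc2a3, Calcrl, Nrp2, Vegfb and Mrps17 passed without WT E, and Car12, Tpi1, Higd1a, Ramp2 and Car4 without WT D.

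Signs turned without WT A, B and C for Car9 (0.89), Slc2a1 (0.35), Hk2 (0.16), Ldha (0.22), Pgk1 (0.61), Adm (0.73), Epas1 (-0.10), Arnt2 (-0.17), Egln1 (0.24), Egln3 (0.68), Slc16a7 (-0.036), Bsg (0.063), Pdhb (0.042), Mpc2 (0.58), Higd1a (0.044), Ankrd37 (0.74), Ramp2 (0.13) and Ndrg3 (-0.31). With the ribosomal RNA share they turned for Vegfa (-0.041), Pgk1 (0.21), Arnt2 (-0.022), Mpc2 (0.12), P4ha1 (-0.016) and Ndrg3 (-0.012), and with the length offset for Pgk1 (0.18) and Ndrg3 (-0.071). Slc2a1 (0.029) and Pgk1 (0.068) turned with the deposited values, and Pgk1 also with voom (0.016) and with the replicate block (0.036). With 1 tumour left out, ranges that crossed 0 were Vegfa -0.029 to 0.26, Slc2a1 -0.26 to 0.17, Hk2 -0.39 to 0.0068, Pgk1 -0.22 to 0.24, Ndrg3 -0.0084 to 0.32, P4ha1 -0.024 to 0.21 and Slc16a1 -0.32 to 0.012. The cause was not tested. Depth limits Adm most, with 12 counts in WT D.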

Other observations

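Adm was set beside the 20 other HIF target genes after its values had been seen. Over the 11 tumours, 14 of the 20 had a Pearson r above 0 with Adm, and 5 passed a permutation test adjusted over the 20, of which 2 also passed by Spearman rho. Ero1l, an oxidase of protein folding in the endoplasmic reticulum, had r of 0.92 (permutation test, adjusted p = 0.0014) and rho of 0.89 (permutation test, adjusted p = 0.0054), and r of 0.78 without WT A and WT D (exact permutation p = 0.0124). Ero1l was also the best match of Adm among 10551 candidates, a choice that the adjustment over the 20 genes does not cover. Stc2, a secreted glycoprotein, had r of 0.88 (permutation test, adjusted p = 0.006) and rho of 0.89 (permutation test, adjusted p = 0.0054), and r of 0.71 without those tumours (exact permutation p = 0.0306). Egln3, Bnip3 and Ankrd37 had r of 0.84, 0.77 and 0.73, and rho of 0.56, 0.61 and 0.51. Without those tumours r was 0.67, 0.32 and 0.35, so that over the 11 tumours Bnip3 and Ankrd37 lean on WT A and WT D. In the KO tumours alone, r of Egln3, Bnip3 and Ankrd37 with Adm was 0.52, 0.57 and -0.066. Kdm3a, a histone demethylase, had the lowest r with Adm, -0.60. All points share the same 11 libraries.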
